A study of Mus musculus with 4 samples.

Results

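Arg1 and Sprr2a expressing microglia were examined here: cells of the mouse cortex with the transcript profile of microglia that also held RNA of Arg1 or of the Sprr2a genes. A cell was counted as one when P2ry12 made up at least 0.1% of its unique molecular identifiers (UMIs, counted RNA molecules), Apoe less than 1%, the border macrophage genes Lyve1, F13a1, Cd163 and Cbr2 together no more than 2 UMIs, and Arg1, Sprr2a2 and Sprr2a3 together at least 2 UMIs. This rule found 267 cells, 30 and 46 in the Hevin libraries and 107 and 84 in the mCherry libraries. They are 267 of 37635 cells that met the same limits on P2ry12, Apoe and border macrophage genes, called Apoe-low microglia below, and of 61371 kept cells in all. The other 37368 Apoe-low microglia are the cells they are set against. Because the cells were chosen by counts in these same libraries, their differences from other microglia are given as descriptions without a test.

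The cells came from WT mice injected in the cortex at P0 or P1 with an adeno-associated virus that made astrocytes overexpress Hevin (2 libraries) or mCherry (2 libraries), both from the astrocyte promoter GfaABC1D. At P15 the cortex was dissociated with actinomycin D, triptolide and anisomycin present, CD11b+ cells were selected on magnetic beads, and up to 40000 cells entered each PIPseq v4.0PLUS reaction. Hevin is a protein that astrocytes secrete and that promotes synapse formation, and the design asks how its overexpression in astrocytes relates to cortical microglia. Neither the number of animals behind a library nor whether the libraries came from separate animals is stated, so the spread between libraries may be technical. The gene tests below (edgeR and DESeq2) also pool the spread over genes. Their p-values therefore do not rest on the library values of a gene alone.

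Arg1 encodes arginase, the enzyme that splits arginine into urea and ornithine, the precursor of polyamines and proline. In mouse macrophages it is a classical target of interleukins 4 and 13, which act through STAT6. Sprr2a genes encode small proline-rich proteins best known as cross-linked components of the cornified envelope of skin and other epithelia. Fcgr4 encodes an activating receptor for IgG that signals with the common gamma chain Fcer1g. Microglia that hold Arg1 have been described in the early postnatal mouse forebrain.

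Each library held 10877 to 19855 barcodes and 49781430 to 67832685 UMIs. The chosen cells had a median of 2742 and 4514 UMIs in the Hevin libraries and 4364 and 4927 in the mCherry libraries, while other Apoe-low microglia had 2060 and 3291 in the Hevin libraries and 3259 and 3949 in the mCherry libraries. They were thus deeper than other microglia in all 4 libraries, and shallowest in Hevin library 1. Their median mitochondrial share was 5.34% and 5% in the Hevin libraries and 5.09% and 4.27% in the mCherry libraries, against 4.09%, 3.32%, 3.42% and 2.80% in other Apoe-low microglia of the same libraries in that order. The share of chosen cells above the 95th percentile of UMIs in their library was 3.33% and 6.52% in the Hevin libraries and 21.5% and 21.4% in the mCherry libraries. How depth, mitochondrial share and doublets take part in the results below was not tested. Between 1 and 7 barcodes were shared by a pair of libraries, and none of them was a chosen cell. Levels below are in CPM, the UMIs of a gene per 1000000 UMIs of the same cells. Sparcl1, the gene of Hevin, stood at 86.4 and 78.4 CPM over all kept cells of the Hevin libraries and at 123 and 91.4 CPM in the mCherry libraries, so it was not higher in the Hevin libraries. The virus was expressed in astrocytes, at which CD11b selection is not aimed, so this gene does not check the labels. Some RNA of astrocyte markers remained, with a list of 8 genes at 226 to 383 CPM in other Apoe-low microglia.

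The sequence upstream of the Sprr2a genes is shown because the rule rests on 2 of the copies and their reads are hard to tell apart. The 250 bases before the RefSeq gene start (build GRCm38.p6) are given 5′ to 3′ for Sprr2a2 (chr3:92250397-92250646, plus strand), Sprr2a3 (chr3:92285054-92285303, plus strand) and Fcgr4 (chr1:171018676-171018925, plus strand), with capitals marking matches to the motifs named next.
Sprr2a2: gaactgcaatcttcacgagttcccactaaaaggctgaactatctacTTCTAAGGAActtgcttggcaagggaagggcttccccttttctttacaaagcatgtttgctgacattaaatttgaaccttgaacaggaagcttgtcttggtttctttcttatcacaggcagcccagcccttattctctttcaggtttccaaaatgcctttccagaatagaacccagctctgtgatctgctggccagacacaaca
Sprr2a3: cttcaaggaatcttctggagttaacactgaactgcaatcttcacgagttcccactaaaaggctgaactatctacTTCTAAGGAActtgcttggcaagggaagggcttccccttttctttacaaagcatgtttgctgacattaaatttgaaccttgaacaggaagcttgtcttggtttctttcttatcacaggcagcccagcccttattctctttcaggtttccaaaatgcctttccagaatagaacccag
Fcgr4: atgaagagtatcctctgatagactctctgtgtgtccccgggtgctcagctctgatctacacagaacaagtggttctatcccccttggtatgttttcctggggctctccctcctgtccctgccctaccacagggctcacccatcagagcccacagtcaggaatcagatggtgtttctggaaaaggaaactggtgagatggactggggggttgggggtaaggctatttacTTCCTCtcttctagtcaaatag
The window of Sprr2a1 was identical to that of Sprr2a2 in all 250 bases, and that of Sprr2a3, shifted by 28 bases, was identical to both in all 222 overlapping bases. Searched on both strands, TTCNNNNGAA, the spacing known for STAT6, had 1 match in each Sprr2a window and none in Fcgr4. It was found in 5.85% of the 32851 mouse windows of this length. TGANTCA, the AP-1 motif, had no match in any of the windows and was found in 6.75% of all windows. GAGGAA, the core of PU.1 sites, had 1 match in Fcgr4, on the minus strand and so shown as its reverse complement, and was found in 23.3% of all windows. A match here is a description of the letters and not a measured binding site.

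Arg1 lies on chromosome 10 (24915221 to 24927484, minus strand in the GENCODE M21 annotation of GRCm38), Fcgr4 on chromosome 1 and the Sprr2a copies side by side on chromosome 3. In that annotation Sprr2a1 (92215799 to 92221911) overlaps the span of Sprr2a2 (92215920 to 92256724) by 5992 bases on the same strand, while Sprr2a3 lies apart (92285417 to 92291405). The last 300 bases of the longest transcripts were identical between Sprr2a1 and Sprr2a2 and differed by 3 edits between either of them and Sprr2a3 (99% identity). Reads of 1 copy could therefore be counted for another. No UMI of Sprr2a1 was counted in any chosen cell, and the split between Sprr2a2 and Sprr2a3 is uncertain.

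Within the chosen cells Sprr2a transcripts outnumbered those of Arg1. All 267 cells together held 1379 UMIs of Sprr2a2, 451 of Sprr2a3 and 535 of Arg1. Arg1 stood at 506 and 295 CPM in Hevin libraries and at 472 and 364 in the mCherry libraries, against 0.951 to 2.25 in other Apoe-low microglia. Sprr2a2 stood at 1929 and 953 CPM in Hevin libraries and at 1101 and 852 in the mCherry libraries, against 2.85 to 5.47 in other Apoe-low microglia. Sprr2a3 stood at 685 and 345 in the Hevin libraries and at 379 and 233 in the mCherry libraries, against 0.625 to 1.55 in other Apoe-low microglia. Hevin library 1 was highest for all 3 genes, and the Hevin and mCherry libraries overlapped for each. Sprr2a2 had 2.76 to 3.66 times the UMIs of Sprr2a3 in the 4 libraries. A single cell held up to 16 UMIs of Arg1 and up to 71 of Sprr2a2 and Sprr2a3 together. These levels were set by the rule and are given as a description.

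Arg1 and Sprr2a RNA were often found in the same cells. Of the chosen cells, 140 held both, 48 held Arg1 without Sprr2a and 79 held Sprr2a without Arg1. Among Apoe-low microglia with at least 2 UMIs of Arg1, 89 of 137 also held a Sprr2a UMI (65.0%, exact binomial 95% interval 56.4% to 72.9%), whereas 777 of 37220 cells without Arg1 did (2.09%, 1.94% to 2.24%). In the other direction, 116 of 195 cells with at least 2 Sprr2a UMIs held Arg1 (59.5%, 52.2% to 66.4%), against 275 of 36718 cells without Sprr2a (0.749%, 0.663% to 0.843%). By library, the share of cells with at least 2 Arg1 UMIs that also held Sprr2a was 43.8% and 80.0% in the Hevin libraries and 70.0% and 58.5% in the mCherry libraries, on 16 to 60 cells each. These intervals cover counting error only, with single cells and not libraries as units. The rule used these same counts, and every cell with at least 2 UMIs of either RNA is a chosen cell by it. The shares are therefore given as a description.

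Free RNA in the droplets sets a background for such calls. Of 721 cells with at least 10 UMIs of endothelial markers, which should lack these genes, 29 (4.02%) had 1 or more UMIs of Arg1, Sprr2a2 and Sprr2a3. None had 2 or more (0 of 721, exact binomial upper limit 0.510%). Their median depth was 4019 to 6100 UMIs, above that of the chosen cells in each of the 4 libraries. The share with 1 or more UMIs was 3.17% in Apoe-low microglia, below the endothelial share, so a single UMI lies within the background. The share with 2 or more was 0.709% in Apoe-low microglia, above the pooled endothelial limit. By library the 141 to 246 endothelial cells allow upper limits of 1.49% to 2.58% (exact binomial), above the shares of chosen cells, so within 1 library the background of 2 or more UMIs is not bounded below those shares.

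Fcgr4, which the rule did not use, followed the number of Arg1 and Sprr2a UMIs. Among Apoe-low microglia, 36443 cells had none of these UMIs, 925 had 1, 59 had 2, 137 had 3 to 9 and 71 had 10 or more. Fcgr4 stood at 20.04, 39.6, 141, 155 and 164 CPM over these classes, all libraries pooled. The step lay between the cells just outside the rule, with 1 UMI, and those just inside, with 2. Igf1, the growth factor, stood at 20.3, 36.6, 165, 254 and 301 over the same classes, and P2ry12, the purinergic receptor that marks surveying microglia, at 5143, 4828, 2826, 2371 and 2087. Tmem119, another microglial marker, went down less, to 1161 in cells with 10 or more against 1839 in cells with none. By library, Fcgr4 over all chosen cells was 105 and 200 CPM in Hevin libraries and 172 and 127 in the mCherry libraries. In other Apoe-low microglia it was 25.6, 26.5, 18.5 and 18.3 in the same order, and these library values did not overlap with those of the chosen cells. A UMI of Fcgr4 was seen in 115 of the 267 cells.

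**Figure D1:**
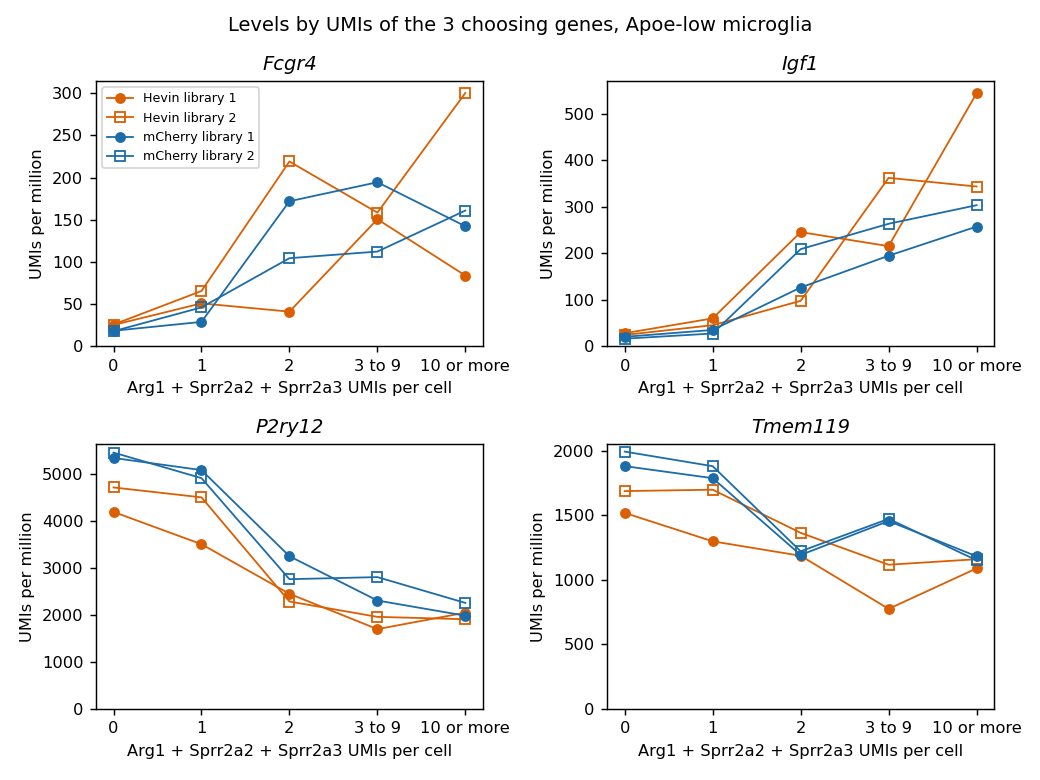
Levels of Fcgr4, Igf1, P2ry12 and Tmem119 in CPM (y axis) of Apoe-low microglia grouped by their UMIs of Arg1, Sprr2a2 and Sprr2a3 (x axis), 1 line per library, with no error bars since each point is a sum over cells. Cells with 2 or more UMIs are the chosen ones; Igf1 is higher and P2ry12 lower in them in every library, and Fcgr4 is higher except at 2 UMIs in Hevin library 1 (9 cells, 40.9 CPM against 50.7 CPM in its cells with 1 UMI).

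The chosen cells carried microglial marker genes, and most epithelial markers were at 0. Tmem119 stood at 959 and 1171 CPM in them in the Hevin libraries and at 1313 and 1316 in the mCherry libraries, against 1513 to 1990 in other Apoe-low microglia. P2ry12, which the rule bounded from below, averaged 2241 ± 303 in the chosen cells and 4923 ± 590 in other Apoe-low microglia (SD, n = 4 libraries). Sall1, a transcription factor of microglial identity, averaged 205 ± 27.7 in the chosen cells, against 285 in other Apoe-low microglia. Of 10 epithelial markers 8 had no UMI in any chosen cell, among them Epcam, Krt5, Krt14 and Krt8, and the list summed to 0, 0, 7.74 and 2.04 CPM in the Hevin and then the mCherry libraries. Of 21 cornified envelope genes in the count tables other than those of the rule, 18 had no UMI in the chosen cells, including Sprr1a, Sprr3, Ivl and Lor.

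Of the 3 border macrophage markers measured none was past 2-fold in either direction, while some endothelial and Apoe-high macrophage markers were higher. The 10 border macrophage markers summed to 622 and 508 CPM in the chosen cells of the Hevin libraries and to 476 and 413 in those of the mCherry libraries, against sums of 1015, 737, 700 and 596 in other Apoe-low microglia of the same libraries. The rule caps 4 of these genes at 2 UMIs per cell in both classes, which weighs more on the deeper chosen cells, and F13a1 (log2 fold 0.20) and Cd163 (0.02) were not lower. Of 8 T and NK cell markers 6 had no UMI, among them Cd3e, Trac and Nkg7. Neutrophil markers summed to 15.5 or less. Of 8 endothelial markers, Flt1 and Pecam1 were over 2-fold higher in the chosen cells in all 4 libraries, with mean log2 folds of 1.82 and 1.95, while Cldn5 averaged 30.1 in chosen and 42.3 in other cells. A list of 8 markers of Apoe-high macrophages summed to 569 and 309 in the chosen cells of the Hevin libraries and to 168 and 159 in those of the mCherry libraries, against 248, 152, 36.1 and 26.1 in other Apoe-low microglia. Of its 3 measured genes 1, Axl, was past 2-fold higher in all libraries. The part of endothelial or Apoe-high macrophage RNA in the results was not tested.

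A set of genes was higher in the chosen cells than in other Apoe-low microglia. Of 3599 genes with a mean of at least 50 CPM in one of the classes, 54 (1.5%) were at least 2-fold higher and 42 (1.17%) at least 2-fold lower in all 4 libraries, and the median log2 fold over all 3599 was −0.18. With no minimum level 104 were higher and 345 lower, and with cells of at least 1 UMI chosen 14 were higher and 0 lower. The log2 folds are of CPM plus 1. The 20 genes with the largest folds were led by Klhl33, a Kelch-like gene, and Tarm1, an activating receptor of myeloid cells. Klhl33 stood at 94.9 and 104 CPM in the chosen cells of the Hevin libraries and at 112 and 83.8 in those of the mCherry libraries, against 2.26, 1.71, 1.75 and 1.53 in other Apoe-low microglia (log2 fold 5.15 ± 0.22, SD over 4 libraries). Tarm1 stood at 105 and 31.8 in the Hevin libraries and at 63.8 and 67.4 in the mCherry libraries, against 0.425 to 0.951 in other Apoe-low microglia (log2 fold 5.15 ± 0.78). The library values of chosen and other cells did not overlap for either gene, but the genes were picked as at least 2-fold higher in every library. A UMI of Klhl33 was seen in 93 and of Tarm1 in 58 of the 267 chosen cells, so most single cells had none.

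Among secreted immune proteins, complement C3 averaged 102 ± 21.0 CPM in the chosen cells and 4.03 ± 1.74 in other Apoe-low microglia (log2 fold 4.40). Ccl24, an eosinophil-attracting chemokine, stood at 337 and 331 in the chosen cells of the Hevin libraries and at 188 and 231 in those of the mCherry libraries, against 15.99 to 20.4 in other Apoe-low microglia (log2 fold 3.81). The ribonucleases Rnase6 and Rnase2a had log2 folds of 3.20 and 3.42. The fold of Rnase2a, which has close paralogs, shrank to 1.49 among cells with a mitochondrial share of at most 5%, and 27 of its 131 UMIs came from 1 cell. Igf1 averaged 271 ± 48.3 in the chosen cells and 22.3 ± 5.22 in other Apoe-low microglia (log2 fold 3.55).

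Other genes of the 20 have no shared list here. Col6a3, a chain of collagen VI, stood at 179 and 186 CPM in the chosen cells of the Hevin libraries and at 132 and 149 in those of the mCherry libraries, against 7.54 to 9.85 in other Apoe-low microglia (log2 fold 4.03). Postn, the matrix protein periostin, had a log2 fold of 3.89, Adam33, a membrane metalloprotease, 3.88, and Sdc4, a heparan sulfate proteoglycan of the cell surface, 3.14. Kcnip4, which binds potassium channels in neurons, averaged 239 ± 60.4 in the chosen cells and 12.2 ± 1.96 in other Apoe-low microglia, but only 56 cells held it and 1 of them gave 44 of its 320 UMIs. Dmrtb1, a DM-domain transcription factor known from the germ line, was at 118 to 159 in the chosen cells and at 6.41 to 10.99 in the others (log2 fold 3.91).

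Surface and antigen-handling genes completed the group. Cd74, the invariant chain of MHC class II, was the most abundant, at 2382 and 2147 CPM in the chosen cells of the Hevin libraries and 2360 and 2162 in those of the mCherry libraries, against 149 to 225 in other Apoe-low microglia (log2 fold 3.57 ± 0.22). It was seen in 246 of the 267 cells. Cd72, an inhibitory lectin receptor best known from B cells, had a log2 fold of 3.11, Fcgr4 2.69, the interferon-induced Ifi27l2a 2.66, the sorting receptor Sorl1 2.59, the long noncoding RNA AU020206 2.47 and the phosphatidylserine-linked receptor kinase Axl 2.34. All 20 genes were higher than in other Apoe-low microglia in every library, because being at least 2-fold higher in all 4 was the condition for naming them. Some were also high in other classes. Apoe-high cells with under 2 choosing UMIs held Axl at 235 and 293 (Hevin) and 73.2 and 111 CPM (mCherry), but Klhl33 at 1.08 pooled. Cells above the border macrophage limit held Adam33 at 75.4 to 108. Those with under 2 choosing UMIs held Igf1 at 364 and 500 and Cd74 at 1812 and 1756 in the Hevin libraries.

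**Figure D2:**
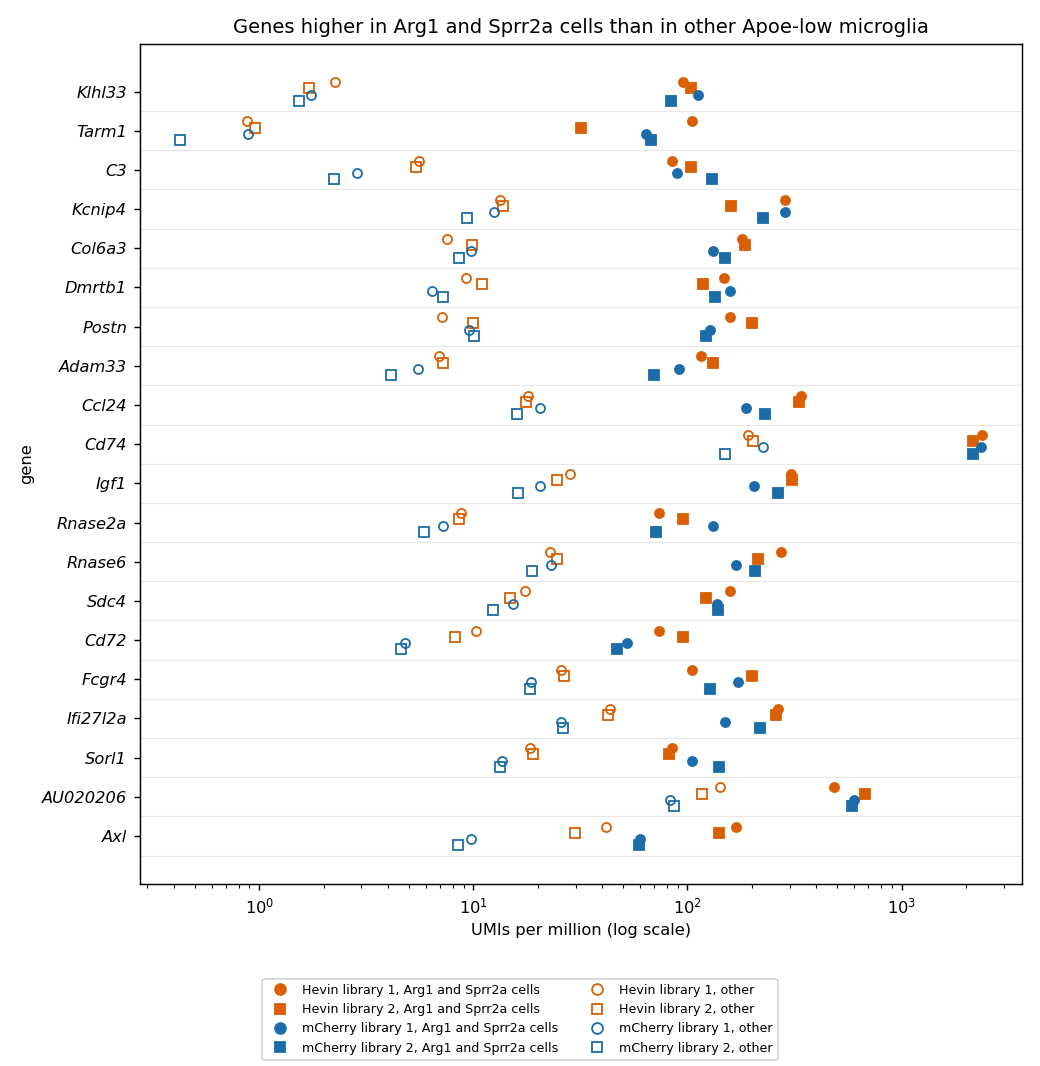
CPM (log scale, x axis) of the 20 genes with the largest folds (y axis) in Arg1 and Sprr2a cells (filled) and other Apoe-low microglia (open) of each library. Filled symbols lie to the right of open ones for each gene in each library, as the choice of these genes required. The log2 folds run from 5.15 for Klhl33 to 2.34 for Axl.

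The genes lowest in the chosen cells were rarer. Nav3, a neuron navigator gene, stood at 31.6 and 54.5 CPM in the chosen cells of the Hevin libraries and at 157 and 223 in those of the mCherry libraries, against 376, 525, 624 and 729 in other Apoe-low microglia (log2 fold −2.62 ± 0.90, and −3.84 among cells of at least 3000 UMIs). The transmembrane gene Tmem44 had a log2 fold of −3.29, Tnfrsf17, a receptor for the survival factor BAFF, −2.75, Csmd3 −2.42, Ifitm10 −2.19, the adhesion molecule Sdk1 −2.16, Tmem144 −2.13, the signalling scaffold Bank1 −2.11, the long noncoding RNA 8030442B05Rik −1.94 and Rnf150 −1.86. These folds rest on 16 UMIs (Tmem144) to 205 UMIs (Nav3) over all chosen cells, and Tmem44 and Tnfrsf17 had none in Hevin library 1.

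By gene list, some homeostatic genes were lower and single members of other lists were higher. These counts are read against the 1.5% of all genes past 2-fold higher and the 1.17% past 2-fold lower. Of 19 homeostatic microglia genes measured, none was past 2-fold higher, 15 were not past it and 4 were past 2-fold lower, Slc2a5 (−1.51), Fcrls (−1.40), P2ry13 (−1.27) and Gpr34 (−1.23), with a list median of −0.54 against −0.18 over all genes. Cx3cr1 (−0.54) and Trem2 (−0.04) were not past the fold. Of 12 developmental and disease-associated genes 4 were higher, Postn, Igf1, Axl and Lyz2 (lysozyme, 1.86), and 1 was lower, the chemokine Ccl6 (−1.16), while Ctsd (−0.87), Cd9 (−0.70) and Cd68 (−0.13) were not past it.

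Fc receptor genes differed among themselves, and the same shares of all genes, 1.5% higher and 1.17% lower, apply to the counts here. Of 10 measured, the inhibitory receptor Fcgr2b (log2 fold 1.68) and the activating Fcgr4 were higher and none was lower. Fcgr2b averaged 1053 ± 65.5 CPM in the chosen cells and 328 in other Apoe-low microglia. Fcgr1 (−0.38), Fcgr3 (0.27) and Fcer1g, the signalling chain (−0.13), were not past the fold. Of 13 phagocytosis and complement genes, C3 and its receptor C3ar1 (1.20) were higher and Gas6, the ligand of Axl (−1.56), lower, while C1qa, C1qb and C1qc lay between −0.05 and 0.09. Of 12 antigen presentation genes, Cd74 and H2-D1 (1.17) were higher, whereas the class II gene H2-Ab1 averaged 68.5 in the chosen cells and 53.0 in the others (0.35) and Ciita, the class II transactivator, had no UMI in the chosen cells.

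The pathways in which Arg1 is best known are given next. Of 7 arginine and polyamine genes measured none was past 2-fold, with Oat at 0.44 and Smox at −0.82, and Arg2 and Nos2 had no UMI in the chosen cells. Of 9 interleukin 4 and 13 response genes, 2, Ccl24 and the receptor Flt1, were higher (1.5% of all genes were) and none lower, while Retnla (−0.29), Mrc1 (−0.33) and Stat6 (−0.37) were not past the fold, and Chil3, Ccl17, Ccl22 and Alox15, which these interleukins induce in mouse macrophages, had no UMI. Of 4 interferon genes Ifi27l2a was higher. Of 12 myeloid transcription factors Batf3 (1.35) was higher and Maf (−1.23) lower. No gene of 14 lysosomal, 11 glycolysis and hypoxia or 12 mitochondrially encoded genes was past the fold, with medians of 0.01, 0.49 and 0.51. Of 5 lipid genes Lrp1, an endocytic receptor, was lower (−1.24).

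**Figure D3:**
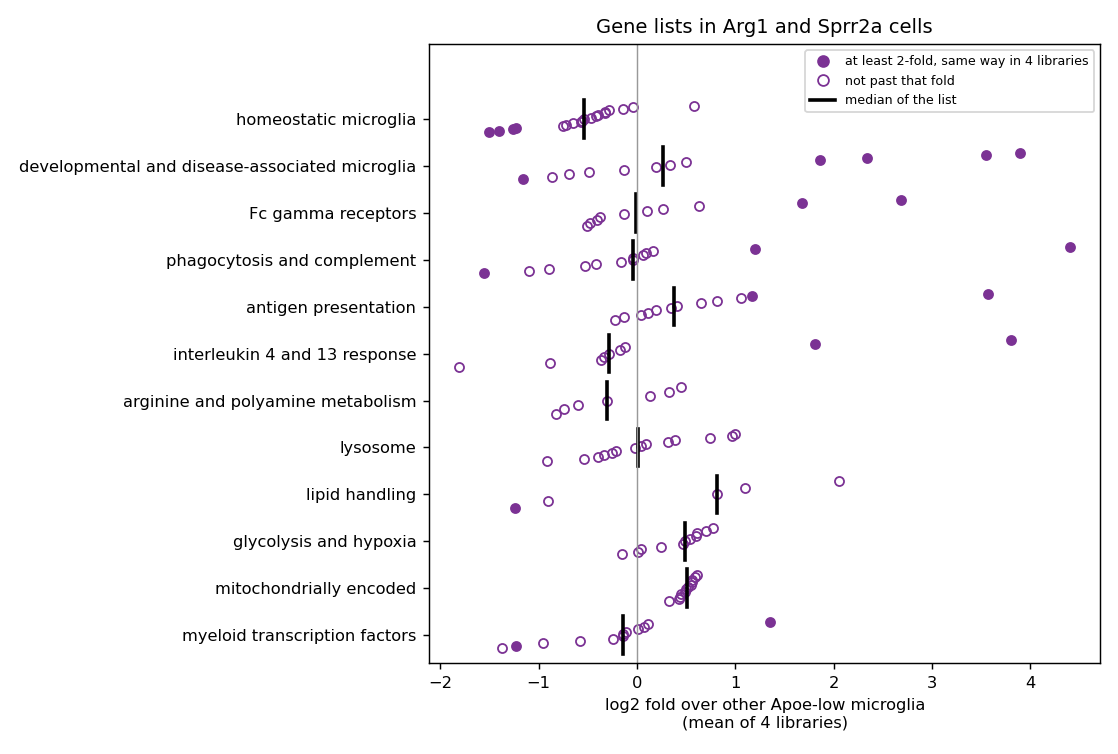
Mean log2 fold over 4 libraries (x axis) of Arg1 and Sprr2a cells over other Apoe-low microglia for each measured gene of 12 lists (y axis), filled where the gene was at least 2-fold different the same way in every library; bars are list medians. Single genes such as C3 (4.40) and Cd74 (3.57) stand far to the right.

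Most chosen cells carried several of the higher genes, and Klhl33 and Cd74 were also high in cells with either choosing RNA alone. After each cell was thinned to 1000 UMIs, 83.3% and 71.7% of the chosen cells of the Hevin libraries and 58.9% and 67.9% of those of the mCherry libraries carried at least 3 of the 20 genes, against 2.27%, 2.24%, 1.00% and 0.75% of other Apoe-low microglia. Without thinning the shares were 90.5% to 100% in the chosen cells and 10.8% to 16.6% in the others. These 20 genes were picked as higher in the same cells, so the difference in these shares was set by that choice. Whether the genes occur in the same cells more often than their levels alone would give was not tested. Klhl33 stood at 115 CPM in the 140 cells with both RNAs, 111 in the 48 with Arg1 alone, 54.1 in the 79 with Sprr2a alone and 1.74 in other Apoe-low microglia. Cd74 stood at 2364, 2808, 1561 and 194 over the same classes. Pooled over libraries, cells with Sprr2a alone thus had the lowest values of the 3 kinds for both genes, but single libraries differed: in Hevin library 1 Cd74 stood at 4724 in the 8 cells with Sprr2a alone, against 2028 in cells with both and 1616 with Arg1 alone, and in Hevin library 2 Klhl33 stood at 60.1 with Sprr2a alone, against 33.5 in the 4 cells with Arg1 alone.

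Cells with the same RNAs occurred outside the limits of the rule. Of 11063 cells below the P2ry12 limit, 122 (1.10%) had at least 2 UMIs of the 3 genes, and those held Klhl33 at 81.9, Tarm1 at 80.1, Kcnip4 at 362 and Cd74 at 2765 CPM, near the levels of the chosen cells, with Tmem119 at 732. Of 7473 cells above the Apoe limit, 14 (0.187%) did. Of 5200 cells above the border macrophage limit, 119 (2.29%) did. These also held Klhl33, at 154 CPM against 11.4 in the other cells above that limit, with C3 at 66.3, Postn at 84.5, Sdc4 at 259 and Ccl24 at 321. Tarm1 at 4.28 and Fcgr4 at 18.2 were below the chosen cells, and Rnase2a at 4911 and Igf1 at 1645 above them. The median depth of these 119 cells was 7307 UMIs. Over 20 sums of 5 cell classes in 4 libraries, the genes whose level was most like that of Arg1 among 10418 genes were Glrx (Pearson r 0.97), Sprr2a3 (0.96), Rnase6 (0.96), Tarm1 (0.95) and Tmem26 (0.94). The sums of a library share its depth and those of the chosen cells are high by choice, so these values are a description.

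Whether Hevin overexpression changed the number of such cells was asked first. Their share of Apoe-low microglia was 0.437% and 0.781% in the Hevin libraries (exact binomial 95% intervals 0.295% to 0.623% and 0.572% to 1.04%) and 0.691% and 0.893% in the mCherry libraries (0.567% to 0.835% and 0.713% to 1.10%). The means of 0.609% ± 0.243 and 0.792% ± 0.143 (SD, n = 2 each) differed by −0.18 percentage points, less than the spread between the Hevin libraries, and the groups overlapped (exact two-sided permutation p = 0.667; the smallest p that 2 against 2 libraries allow is 0.333). After thinning every cell to 1500 UMIs the shares were 0.356% and 0.450% in the Hevin libraries and 0.327% and 0.404% in the mCherry libraries, a difference of 0.04 the other way, with overlap between the groups. After thinning to 1000 UMIs they were 0.407% and 0.355% in the Hevin libraries and 0.266% and 0.241% in the mCherry libraries, without overlap (exact p = 0.333). The direction thus changed with depth, and no change in share was detectable. Thinning left out 4360 cells of Hevin library 1 at 1500 UMIs and 336 at 1000 UMIs, and none of the other libraries.

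Over all kept cells the share was 0.153% and 0.353% in the Hevin libraries and 0.60% and 0.774% in the mCherry libraries, which did not overlap (exact p = 0.333, the smallest possible), and an edgeR quasi-likelihood test on numbers of cells over 5 cell classes gave a log2 fold of −1.49 (adjusted p = 0.0305). In the same test other Apoe-low microglia had a log2 fold of −1.11 (adjusted p = 8.01e-05). The totals hold 6775 and 3461 cells below the P2ry12 limit and 4628 and 2662 Apoe-high cells in the Hevin libraries, against 505 and 322 cells below the P2ry12 limit and 122 and 61 Apoe-high cells in the mCherry libraries. Fewer chosen cells and more cells of these other classes cannot be told apart in a share of all cells.

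**Figure D4:**
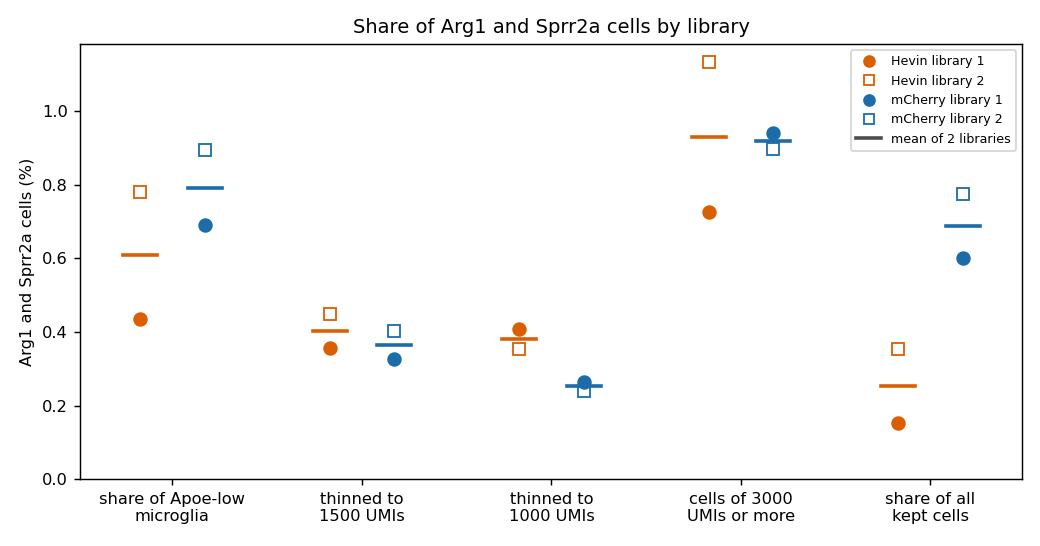
Share of Arg1 and Sprr2a cells in percent (y axis) in the Hevin libraries (left of each pair) and mCherry libraries (right), counted in 5 ways (x axis), with bars at the mean of 2 libraries. Among Apoe-low microglia the groups overlap in the plain share, the Hevin mean lies above the mCherry mean after thinning, and at 1000 UMIs the groups no longer overlap; among all kept cells both Hevin libraries (0.153% and 0.353%) lie below both mCherry libraries.

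Gene expression in the chosen cells was then compared between Hevin and mCherry libraries with edgeR's quasi-likelihood test on counts summed per library, adjusted by Benjamini-Hochberg over all 5316 genes tested. At an adjusted p below 0.05, 4 genes (0.0752%) passed, 3 higher (0.0564%) and 1 lower (0.0188%) in Hevin libraries. Cybb, the catalytic subunit of the phagocyte NADPH oxidase, stood at 126 and 59.0 CPM in Hevin libraries and at 7.74 and 2.04 in the mCherry libraries (log2 fold 3.96 ± 0.66, SE, adjusted p = 0.0167). Ms4a7, a membrane gene of macrophages, stood at 126 and 77.2 in the Hevin libraries and at 11.6 and 14.3 in the mCherry libraries (2.83 ± 0.47, adjusted p = 0.0167). Nav3 stood at 31.6 and 54.5 in the Hevin libraries and at 157 and 223 in the mCherry libraries (−1.97 ± 0.36, adjusted p = 0.0395). The groups did not overlap for these genes, but the rule for naming genes required that, so it is no separate result. Rangap1, a GTPase-activating protein of nuclear transport, also passed (2.32 ± 0.44, adjusted p = 0.0410), but 31 of its 41 UMIs in Hevin library 2 came from 1 cell, and without that library the log2 fold was 0.65 (adjusted p = 0.956).

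Cybb was seen in 10 of 30 and 13 of 46 chosen cells of the Hevin libraries and in 4 of 107 and 1 of 84 of the mCherry libraries, and Ms4a7 in 9 and 12 against 6 and 6 cells. Both genes differed in the same direction in other Apoe-low microglia, where Ms4a7 had a log2 fold of 2.91 and Cybb of 2.42 without passing the test (adjusted p = 0.101 and 0.131 from edgeR without a replicate block), and their Hevin effects were not shown to differ between the cell classes (interaction adjusted p = 1 for Ms4a7 and 0.891 for Cybb). Ms4a7 is one of the Apoe-high macrophage markers, whose summed level moved with the groups as given above; the part of those cells' RNA in these calls was not tested. The call of Cybb was lost without Hevin library 1 (log2 fold 3.50, adjusted p = 0.337) and without mCherry library 1 (5.16, 0.104) or 2 (3.38, 0.254), that of Ms4a7 without Hevin library 1 (2.56, 0.0665) and that of Nav3 without Hevin library 2 (−2.51, 0.0510). None of the 4 genes was called by DESeq2, which called 0 of 5316 genes, 37 of them with an unadjusted p below 0.05.

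Genes next in order did not pass edgeR's test in the chosen cells. On the higher side, Axl stood at 169 and 141 CPM in Hevin libraries and at 60.0 and 59.3 in the mCherry libraries (log2 fold 1.35, adjusted p = 0.219), followed by Fam168a (1.23, adjusted p = 0.296) and Tgfbi (2.17, adjusted p = 0.573). On the lower side, Sdk1 stood at 10.5 and 9.08 in the Hevin libraries and at 60.0 and 85.8 in the mCherry libraries (−2.86, adjusted p = 0.139), followed by Hmgb2, Ube2c, Stmn1 and Ncbp3 (adjusted p = 0.255 to 0.573). Of the genes of the rule and the marker Fcgr4, Arg1 had a log2 fold of −0.13 ± 0.25, Sprr2a2 of 0.54 ± 0.23, Sprr2a3 of 0.67 ± 0.28 and Fcgr4 of 0.19 ± 0.29 (adjusted p = 0.907 to 0.994), and Cd74 of 0.03 ± 0.14. The rule sets a floor for the first 3 of these. The lists of homeostatic, interleukin 4 and 13, Fc receptor and arginine genes had no gene past the threshold among 19, 10, 10 and 12 tested, with medians of −0.17, 0.27, 0.01 and −0.23 against 0.00 over all genes.

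The Hevin effect differed between the chosen cells and other Apoe-low microglia for 14 of 14383 genes (0.0973%; edgeR interaction with the library as a block). Of these, 3 (0.0209%) were more positive and 11 (0.0765%) more negative in the chosen cells. Apoe, which the rule caps in both classes, is among the 11. DESeq2 called Apoe alone and no gene outside the rule. The median interaction over all genes was −0.17 with TMM scaling and −0.06 with total counts, so values are read against that shift. In other Apoe-low microglia themselves edgeR called 0 of 17175 genes, with 941 at an unadjusted p below 0.05, and DESeq2 called 150. With the replicate number as a block edgeR called 591 in those cells, so the 0 depends on the fit. Lyz2 stood at 1223 and 1312 CPM in the chosen cells of the Hevin libraries and at 1132 and 1159 in those of the mCherry libraries, and in other Apoe-low microglia at 514 and 420 in the Hevin libraries and 273 and 205 in the mCherry libraries (interaction −0.90 ± 0.13, adjusted p = 5.95e-09 from edgeR). The chosen cells thus held much Lyz2 in both groups, while other microglia held more of it in Hevin libraries. Gpr65, a proton-sensing receptor (−2.26 ± 0.40), Apoc1 (−2.24 ± 0.47) and Cyp4f18 (−3.22 ± 0.69) also had higher values in Hevin libraries among other Apoe-low microglia. Gpr65, Apoc1, Cyp4f18 and Lyz2 did not pass the test in those cells (adjusted p = 0.0815, 0.0815, 0.0815 and 0.180 from edgeR without a replicate block). Without mCherry library 2 the call of Lyz2 was lost (−0.70, adjusted p = 0.422), and that of Gpr65 without mCherry library 1 (−1.97, 0.194) or Hevin library 2 (−1.86, 0.0622). Cyp4f18 lost its call without any 1 of the 4 libraries (adjusted p = 0.106 to 0.817), and Apoc1 without mCherry library 1 (0.716), Hevin library 1 (0.0643) or Hevin library 2 (0.0610).

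Apoe itself also differed (−0.93 ± 0.12), at 5322 and 3291 in the chosen cells of the Hevin libraries and 2924 and 2417 in those of the mCherry libraries, against 4601 and 3202 in other Apoe-low microglia of the Hevin libraries and 1525 and 1275 in those of the mCherry libraries. The rule caps it below 1% in both classes, so these values are bounded. Of the 3 genes more positive in the chosen cells, Agfg2 and the chemokine Ccl4 each had 18 UMIs in 1 cell of Hevin library 1, and Rangap1 is the gene described above. Without Hevin library 1, Agfg2 had an interaction of 0.73 and neither passed edgeR (adjusted p = 1 for both); Ccl4 then has no UMI in the remaining Hevin library, so its fitted value is no bound.

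**Figure D5:**
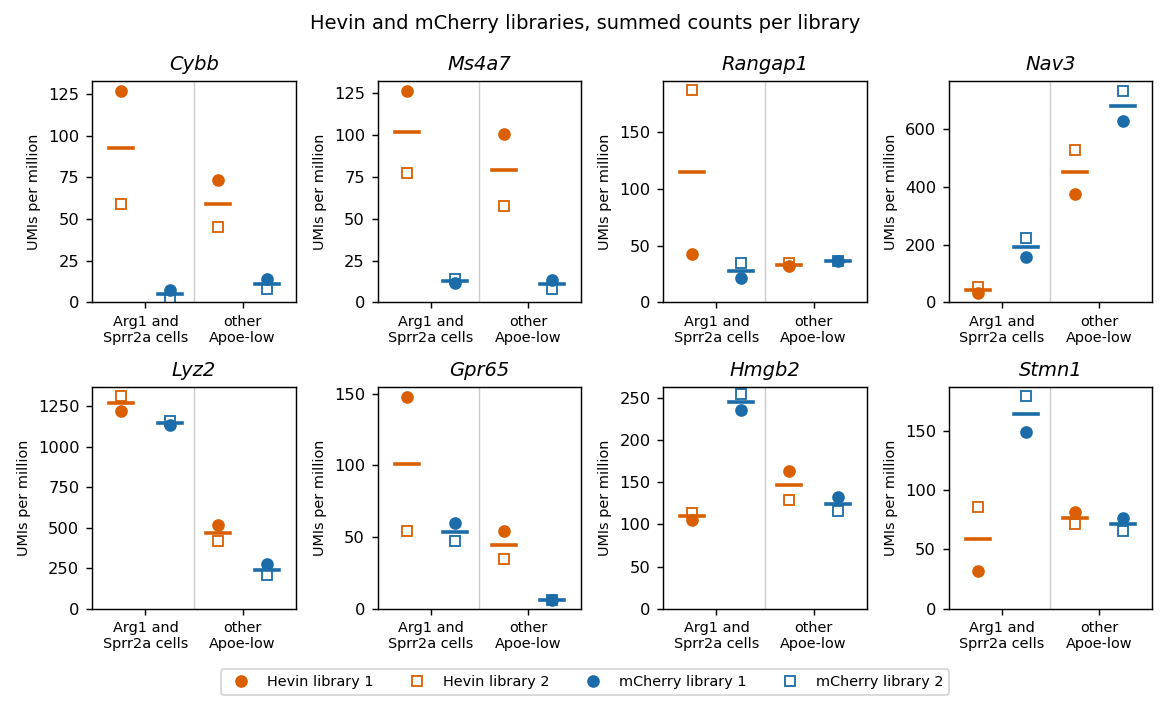
CPM (y axis) of 8 genes in Arg1 and Sprr2a cells and in other Apoe-low microglia (x axis), each with Hevin libraries left of mCherry libraries; points are libraries and bars the mean of 2. Cybb and Ms4a7 are higher in Hevin libraries in both classes, Rangap1 is high in Hevin library 2 alone, and Hmgb2 and Stmn1 lie lower in Hevin libraries in the chosen cells, with interaction values of −1.42 for each.

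Genes of dividing cells were among those with a more negative Hevin effect in the chosen cells. Hmgb2, a chromatin protein of cycling cells, stood at 105 and 113 CPM in the chosen cells of the Hevin libraries and at 236 and 255 in those of the mCherry libraries, and at 116 to 164 in other Apoe-low microglia (interaction −1.42 ± 0.25). Stmn1, a microtubule regulator, stood at 31.6 and 86.2 in the chosen cells of the Hevin libraries and at 149 and 180 in those of the mCherry libraries, and at 65.6 to 81.4 in other Apoe-low microglia (−1.42 ± 0.31). Without Hevin library 1 or mCherry library 2 neither passed (edgeR adjusted p = 0.0542 and 0.0597 for Hmgb2, 0.763 and 0.855 for Stmn1). Cells were also counted by a list of 20 G2 and M phase genes that includes Hmgb2, a measure added after these genes had been seen. Hmgb2 gave 10 of 22 and 25 of 44 UMIs of the list in the chosen cells of the Hevin libraries. In the mCherry libraries it gave 122 of 245 and 125 of 312, so the count is not separate from Hmgb2. At least 5 UMIs of the list were held by 0 of 30 and 1 of 46 chosen cells of the Hevin libraries and 9 of 107 and 8 of 84 of the mCherry libraries. That is 0% (which allows up to 10%) and 2.17% in the Hevin libraries, and 8.41% and 9.52% in the mCherry libraries, against 1.46%, 1.15%, 1.13% and 1.15% of other Apoe-low microglia. After thinning to 1000 UMIs, with at least 2 UMIs of the list, the shares were 3.33% and 4.35% in the Hevin libraries and 6.54% and 9.52% in the mCherry libraries. The chosen cells in mCherry libraries also included more cells of very high depth, as given above, and its part in this was not tested.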

How the data were processed

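UMI counts per gene and barcode are what the authors deposited for each library, and every value here starts from those raw counts. Per the submitters' processing notes, the genome build is mm10. Which aligner, annotation and counting program were used, and whether strand was read, is not given in the sources used here. Barcodes with at least 500 UMIs and at most 10% mitochondrial UMIs were kept, and 27 symbols used by more than 1 gene were kept apart by gene ID. The members, gene lists and tests were chosen with earlier results of these data known.

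Counts were summed per library over the chosen cells and over other Apoe-low microglia and tested with edgeR 4.0.16 in R 4.3.3 (TMM scaling, filterByExpr, quasi-likelihood F test, group alone), with DESeq2 1.42.0 as an alternative; the steps were tested on simulated data. The difference between the cell classes was tested on 8 sums with the library as a block. Folds of chosen over other cells use a pseudocount of 1 CPM and genes of at least 50 CPM. Shares were compared with an exact permutation test over libraries in scipy 1.17.1, and intervals are exact Clopper-Pearson at 95%. No doublet caller was run; an alternative removed the 5% of cells with most UMIs in each library. Shares were also taken after thinning each cell to 1500 or 1000 UMIs.

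Named between chosen and other cells are the 20 largest and 10 smallest mean log2 folds among genes past 2-fold in all 4 libraries. Named between Hevin and mCherry libraries are called genes of at least 10 CPM whose libraries do not overlap, filled up in order of p to 6 in each direction in the chosen cells and to 5 for the interaction, plus the genes of the rule; the 5 genes most like Arg1 are those of highest Pearson correlation of log2(CPM + 1). Genes of the lists named beside their counts, and further called genes, were chosen after their values were seen. Library numbers did not pair samples, since no label says that a number marks a shared animal, litter or day.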

Additional observations from a re-analysis of the deposited data

Results flagged for a closer look

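The Hevin effect in Arg1 and Sprr2a cells differed from that in other Apoe-low microglia for 14 genes by edgeR's interaction test at an adjusted p below 0.05, which is why each is listed here. One of the 14, Apoe, is bounded by the rule in both classes and is given as a value only. DESeq2 called Apoe and none of the others. The log2 differences, chosen minus other cells, were −0.93 for Apoe, −0.90 for Lyz2, −2.26 for Gpr65, −1.42 for Hmgb2, −2.24 for Apoc1, −3.22 for Cyp4f18, −1.03 for Kazn, −1.42 for Stmn1, −1.60 for Nav3, −0.64 for AU020206 and −0.52 for Cd52. They were 2.30 for Rangap1, 3.01 for Agfg2 and 2.58 for Ccl4. A single cell of 1 Hevin library held 18 of the 29 UMIs of Agfg2, 18 of the 27 of Ccl4 and 31 of the 73 of Rangap1. Cd52, a short surface glycoprotein of leukocytes, stood at 1328 and 1303 CPM in the chosen cells of the Hevin libraries and at 1077 and 1065 CPM in those of the mCherry libraries.

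Cells outside the rule also held at least 2 UMIs of Arg1, Sprr2a2 and Sprr2a3, whereas none of the 721 endothelial cells did. These were 2.29% of cells above the border macrophage limit and 1.10% of cells below the P2ry12 limit.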

How the results depend on the processing

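The difference in share of Apoe-low microglia, −0.18 percentage points, turned to 0.037 and 0.128 after thinning to 1500 and 1000 UMIs and to 0.0109 among cells of at least 3000 UMIs. It lay between −0.356 and −0.0114 with a library left out. Numbers of cells among all kept cells gave a log2 fold of −1.49, and −1.53 with the replicate block (edgeR adjusted p = 0.0305 and 0.0291).

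In the chosen cells 4 genes were called. The count was 0 with DESeq2, at least 3 UMIs, Arg1 alone, at least 3000 UMIs per cell or without the 5% deepest cells, 2 with total counts or at most 5% mitochondrial UMIs, 9 with at least 1 UMI, 12 without the Apoe limit, 13 without a filter, and 4 to 14 with a library left out. The replicate block gave 14, among them all 4. The library numbers share no stated source, and their deviations correlated at 0.0859 in chosen and 0.470 in other cells.

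In other Apoe-low microglia 0 genes were called, against 150 with DESeq2, 371 without a filter, 7 at 10 CPM or more, 591 with the replicate block, 778 without the Apoe limit, 1 at 3000 UMIs and 10 to 220 with a library left out. The 14 interactions became 1 with DESeq2, 5 with at least 1 UMI, 9 with Arg1 alone, 65 without the Apoe limit, 4 at 5% mitochondrial UMIs, 7 without the deepest cells and 4 to 8 with a library left out. Apoe, which the rule caps, is the 1 interaction that DESeq2 kept. The 96 genes past 2-fold (54 higher, 42 lower) became 14 with at least 1 UMI (14 higher, 0 lower) and 449 with no minimum level (104 higher, 345 lower).

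Ccl4 was fitted at −9.32 at 5% mitochondrial UMIs and −10.48 without the deepest cells, and ranged from −10.58 to 4.25 with a library left out; 18 of its 27 UMIs lie in 1 cell of Hevin library 1, Hevin library 2 has none of its UMIs, and the negative values are no bounds. Kazn reversed to 0.13 with at least 1 UMI. The causes were not tested. The per-cell counts of G2 and M genes, a list that includes Hmgb2, and their 2 alternatives were chosen after seeing the data. The difference of −7.88 points was −4.19 thinned and −7.52 without the deepest cells. With 30 and 46 chosen cells in the Hevin libraries, genes of few UMIs could not be compared.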
